A study of Drosophila melanogaster with 10 samples.

Results

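The 60 genes described here are listed in the deposited tables under a CG number, the provisional kind of name given to Drosophila genes at annotation, and were chosen by their low RNA in pupal neuroblasts with RNAi against the Mediator subunit gene med27. A gene was included when its mean over the 6 replicates was at least 1 FPKM (fragments scaled to transcript length and to the mapped fragments of the library) and its mean log2(FPKM + 1) was at least 1 lower in RNAi than in wild-type pupae. Both RNAi replicates also had to lie below both wild-type pupal replicates. This gave 60 of the 3147 CG-numbered genes at that level, or 1.91%, out of 6992 genes at that level and 14210 listed. The genes CG31549, CG12171, CG31548 and CG17838 were left out by name, and 2 of these 4 (CG31549 and CG12171) would otherwise have met the rule. The RNAi and wild-type pupal values chose the genes, so their difference is described below without a test. The same rule was met by 47 of 3841 genes with other names, or 1.22%, and its mirror image, for genes higher in RNAi, was met by 65 CG-numbered genes, or 2.07%. Over all 6992 genes, whatever their name, 1.56% met the rule for lower values.

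The RNA came from large, strongly GFP-positive central brain neuroblasts of Drosophila melanogaster, isolated by flow cytometry. All 3 groups carried inscuteable-Gal4 driving UAS-CD8::GFP and were kept at 29 °C after a 24 h egg lay. Wild-type larvae (late 3rd instar, 5 days) and wild-type pupae (0 to 2 h, 6 days) carried the empty landing site VIE-260B (TID:60100), and RNAi pupae of the same age carried the med27 hairpin line TID:106703. Each group had 2 numbered replicates, and each pupal replicate had been run as 2 technical runs, which were averaged, so that n = 2 throughout. A single hairpin line was used, and the marker by which cells were sorted is under the same driver as the hairpin. The labels do not say that the numbered replicates came from separate animals or cultures, so p-values measure only the spread between these samples, which may be technical.

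Neuroblasts are the neural stem cells of the fly brain: they divide asymmetrically, renew themselves and give off smaller daughters that form neurons and glia, and central brain neuroblasts stop dividing in the pupa. Mediator is a large complex that links transcription factors to RNA polymerase II, and MED27 is one of its subunits. The steroid hormone ecdysone, whose pulse starts pupariation, acts through a nuclear receptor on cascades of target genes. By its title, the study asks about ecdysone, Mediator and metabolism in these stem cells as they end proliferation.

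MED27 itself was at 31.7 and 38.3 FPKM in the larval replicates, 31.5 and 27.4 in wild-type pupae and 5.33 and 3.99 in RNAi pupae, and fell by 2.43 on the log2(FPKM + 1) scale against wild-type pupae (limma, adjusted p = 0.000522). The confidence bounds of the deposited tables put the depth of the larvae at 18937156 and 18592201 fragments, and that of a pupal run at 27267530 to 31047717. The 9 neuroblast markers summed to 1464 to 1945 FPKM in every replicate, the largest part of it from mira, at 793 to 955 FPKM. Limma called 3 of the 9 lower in RNAi than in wild-type pupae, beside 8.64% of all 6992 genes. These were ase (log2 difference -0.82, limma adjusted p = 0.00224), pros (-0.56, limma adjusted p = 0.0266) and CycE (-0.54, limma adjusted p = 0.0163). It called 1 higher, l(1)sc (1.07, limma adjusted p = 0.00934), beside 19.6% of all 6992 genes. The part of these shifts in the values of the 60 genes was not tested. The neuron list summed to 43.3 and 37.2 FPKM in larvae, 110 and 208 in wild-type pupae and 104 and 104 in RNAi pupae. The glia list summed to 194 and 162, 186 and 190, and 154 and 154 FPKM in the same order. Muscle and ring gland lists stayed at or below 1.83 FPKM in every replicate, and the fat body list at or below 2.99. The haemocyte list summed to 38.3 and 32.8, 28.6 and 28.8, and 20.4 and 19.5 FPKM in the same order. Its 1 tested gene, crq, gave nearly all of this, at 37.6 and 31.6, 27.9 and 27.7, and 19.9 and 18.9 FPKM. The other listed haemocyte genes stayed at or below 0.908 FPKM in every replicate. In RNAi, crq was lower than in wild-type pupae (log2 difference -0.50, limma adjusted p = 0.0119). The trachea and epidermis list summed to 18.9 and 17.3, 7.31 and 6.99, and 4.7 and 7.12 FPKM. The part of these lists in the values of the 60 genes was not tested. Fewer cells of a type in the sort and less RNA per cell cannot be told apart in these bulk samples.

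Among the 60 genes the median difference of RNAi from wild-type pupae was -1.29 on the log2(FPKM + 1) scale, against 0.05 over all 6992 genes, and the range was -2.11 to -1.003. In linear terms the RNAi mean was 5.68 to 51.8% of the wild-type pupal mean, with a median of 31.2%. The difference was at or below -1.5 in 19 genes and at or below -2 in 3. Limma, fitted on all 6992 genes, called 57 of the 60 lower (adjusted p under 0.05), beside 8.64% of all genes; since the rule used this contrast, nothing is read from that count. The 3 not called were CG6294, CG10512 and CG32762. The genes were less abundant than the typical tested gene: wild-type pupal means ran from 1.94 to 114 FPKM with a median of 13.3, against a median of 23.2 for all tested genes.

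**Figure D1:**
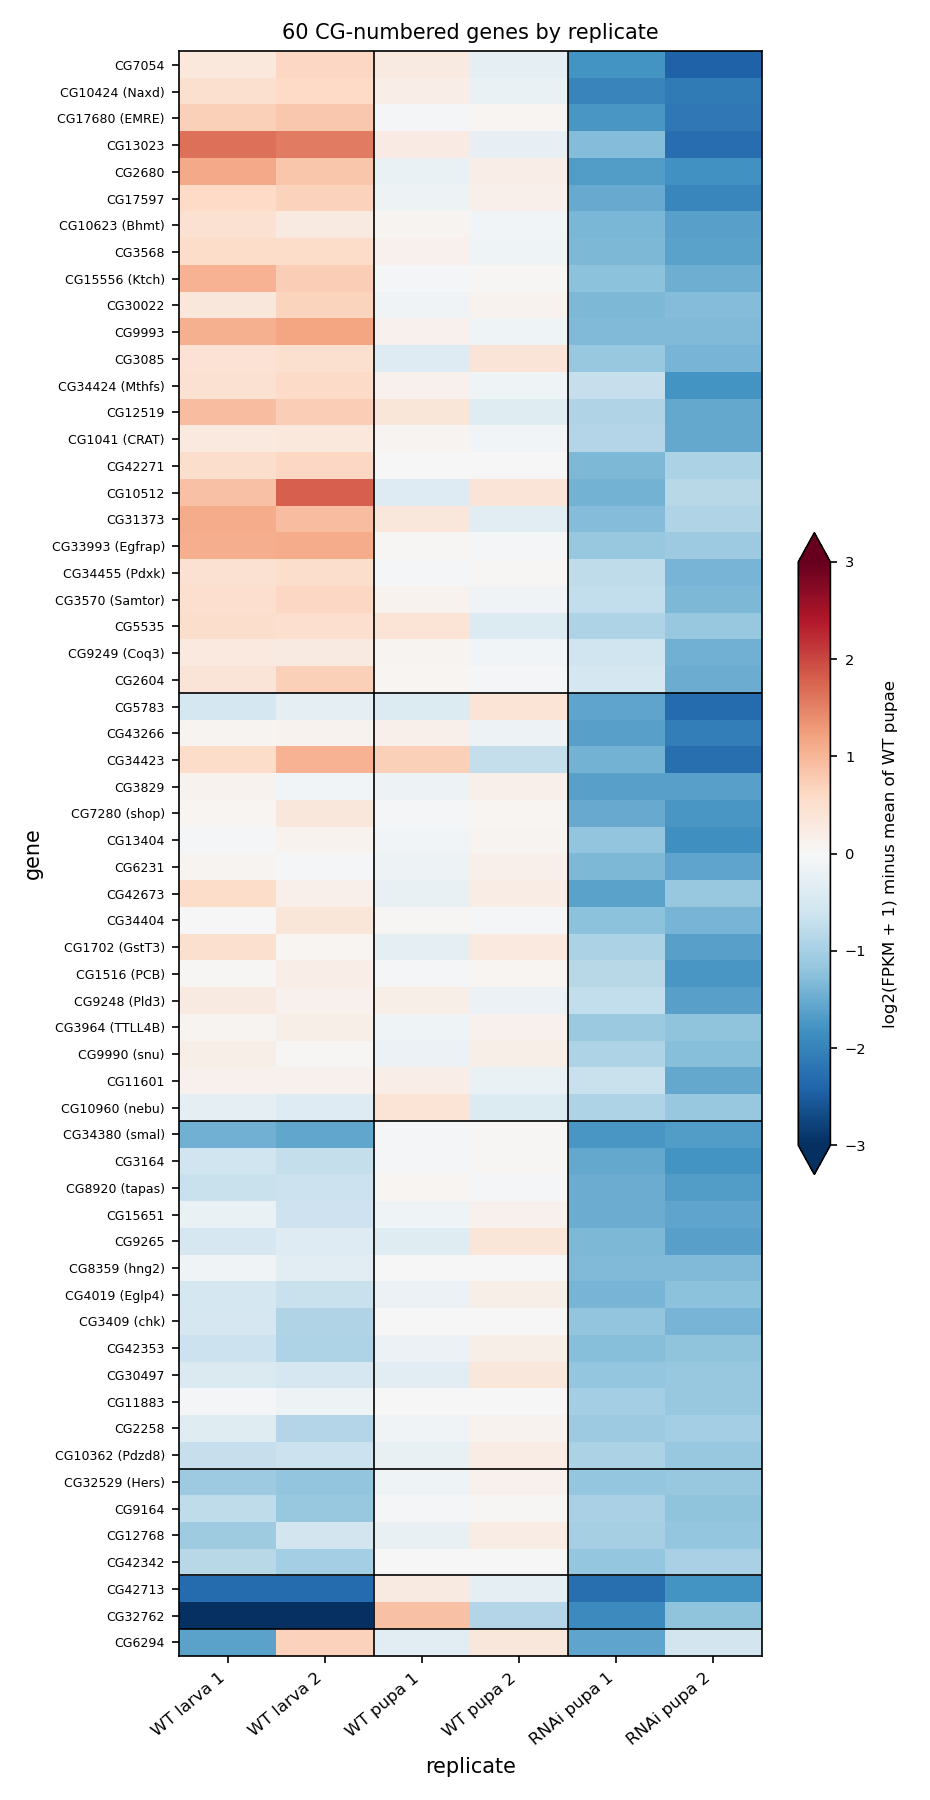
Each row is one of the 60 genes and each column one numbered replicate. Colour gives log2(FPKM + 1) minus the gene's mean in wild-type pupae, and horizontal lines part the genes by where the larval replicates lie. Both RNAi columns are blue in every row, as the rule requires, while the larval columns run from red in the top block of 24 genes to blue in the lower blocks.

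Current gene tables give 24 of the 60 a name other than a CG or CR number, and 19 of these could be put into 5 groups by known role; the groups were drawn up after the values had been seen. The first group holds 5 genes of mitochondria and energy metabolism, whose RNAi means were 20.9 to 46.9% of wild-type pupae. Naxd (CG10424), the dehydratase that repairs hydrated NADH and NADPH, was at 28.2 and 21.4 FPKM in wild-type pupae and 5.48 and 4.89 in RNAi, a mean of 24.8 ± 4.82 against 5.19 ± 0.418 (SD, n = 2). EMRE (CG17680), the small subunit that couples the mitochondrial calcium uniporter to its regulators, was at 21.9 and 24.1 FPKM in wild-type pupae and 6.16 and 4.38 in RNAi. In both genes the RNAi replicates lay close together and far below the wild-type ones. PCB (CG1516), pyruvate carboxylase, which feeds oxaloacetate into the tricarboxylic acid cycle, had 63 and 68.9 FPKM in wild-type pupae and 36.4 and 19.1 in RNAi. CRAT (CG1041), carnitine acetyltransferase, which buffers the acetyl-CoA pool, had 19.1 and 17.2 FPKM in wild-type pupae and 9.33 and 5.58 in RNAi. Coq3 (CG9249), a methyltransferase of ubiquinone synthesis, had 12 and 10.5 FPKM in wild-type pupae and 7.07 and 3.47 in RNAi. For PCB, CRAT and Coq3 the second RNAi replicate was clearly the lower one.

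All 5 of these genes were also lower in RNAi pupae than in larvae, beside 19.5% of all tested genes (limma, adjusted p = 0.000158 for Naxd and EMRE, 0.00128 for CRAT, 0.00428 for PCB and 0.00551 for Coq3), a comparison that shares the RNAi libraries with the rule and so leans downwards. Larval levels were 34.9 and 37.6 FPKM for Naxd and 38.3 and 40.9 for EMRE, above both wild-type pupal replicates in each case. A list for the tricarboxylic acid cycle, which reaches beyond the cycle and shares scu with the fatty acid oxidation list, had 21 tested genes. Of these, limma called 9 higher and 5 lower in RNAi than in wild-type pupae, beside 19.6% and 8.64% of all tested genes. Their median was 0.27 on the log2(FPKM + 1) scale. Citrate synthase (kdn) was among the higher, at 81.9 and 108 FPKM in wild-type pupae and 188 and 195 in RNAi (log2 difference 1.02, limma adjusted p = 0.00254). Malate dehydrogenase Mdh2 was among the lower, at 24.5 and 26.9 against 17 and 15.6 FPKM (-0.63, limma adjusted p = 0.0167). Of 12 glycolysis genes 3 were higher and 3 lower, with a median of 0.07. Of 12 fatty acid oxidation genes 2 were higher and 3 lower, with a median of -0.32, and that list holds 1 of the 60, CG17597, at 11.7 and 14.6 FPKM in wild-type pupae and 3.96 and 2.62 in RNAi.

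The second group holds 6 genes of one-carbon, vitamin and sulphur metabolism, at 22.1 to 44.9% of wild-type pupae. Bhmt (CG10623), which remakes methionine from homocysteine with betaine as methyl donor, was at 8.54 and 7.55 FPKM in wild-type pupae and 2.47 and 1.91 in RNAi. Mthfs (CG34424), methenyltetrahydrofolate synthetase, which returns a storage folate to the active pool, was at 8.34 and 6.86 FPKM against 4.29 and 1.46. Samtor (CG3570), the S-adenosylmethionine sensor that acts on the growth kinase complex TORC1, was at 12.1 and 10.2 FPKM against 6.23 and 3.74. Mthfs and Samtor had a wide gap between their RNAi replicates, whereas Bhmt did not.

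Pdxk (CG34455), pyridoxal kinase, which makes the active form of vitamin B6, was at 5.63 and 5.89 FPKM in wild-type pupae and 3 and 1.58 in RNAi. The sulfite oxidase gene shop (CG7280), known from glia in the fly, was at 6.17 and 6.89 FPKM against 1.63 and 1.26. GstT3 (CG1702), a theta-class glutathione transferase, was at 12.4 and 19 FPKM against 7.49 and 4.28. No wild-type value of these 6 genes overlapped an RNAi value, as the rule fixes, and all 6 were lower in RNAi than in larvae, beside the same 19.5% and again with the RNAi libraries shared with the rule (limma, adjusted p from 0.000479 for Bhmt to 0.00441 for Mthfs). A list of 8 other tested genes of one-carbon and methionine metabolism was added after the values were seen. Of these 8, 3 were higher in RNAi than in wild-type pupae, beside 19.6% of all tested genes, and the rest were not called. The higher ones were Cbs, cystathionine beta-synthase (log2 difference 1.58, limma adjusted p = 0.0019), Nmdmc, a mitochondrial folate enzyme (1.37, limma adjusted p = 0.0032), and Ahcy13, adenosylhomocysteinase (0.61, limma adjusted p = 0.00414).

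The membrane transport genes chk, Eglp4 and snu had RNAi means of 38.4 to 44.3% of wild-type pupae. The monocarboxylate transporter gene chk (CG3409, chaski), known from glia in the fly, was at 45.6 and 46.8 FPKM in wild-type pupae and 19.7 and 16.9 in RNAi. Eglp4 (CG4019), an entomoglyceroporin of the aquaporin family, was at 33 and 42.3 FPKM against 13.5 and 15.4. The ABC transporter gene snu (CG9990), known for the cuticle barrier, was at 23.9 and 31.2 FPKM against 13.8 and 10.6. Larval values were 32.4 and 24.4 FPKM for chk and 25.8 and 23.3 for Eglp4, between the pupal groups in both genes, and 31 and 27.8 for snu, beside wild-type pupae.

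Since shop and chk are known from glia, the glial list is given beside them. Of its 9 genes, 4 passed the expression filter. Limma called 1 of the 4 lower in RNAi than in wild-type pupae, beside 8.64% of all tested genes. This was the glutamate transporter gene Eaat1 (61.1 and 71.5 FPKM in wild-type pupae, 18.6 and 18.7 in RNAi, log2 difference -1.77, limma adjusted p = 0.000522). The glial master regulator repo was at 0.394 and 0.834 FPKM in wild-type pupae and 0.51 and 0.595 in RNAi, moody was at or below 0.215 FPKM in all pupal replicates, and nrv2 was at 121 and 114 against 131 and 129. The part of glial RNA in the values of shop and chk was not tested.

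The genes tapas and Hers act on RNA and chromatin. The Tudor-domain gene tapas (CG8920), known from the germline piRNA pathway, was at 10.3 and 9.52 FPKM in wild-type pupae and 2.87 and 2.4 in RNAi. The germline list, of which 5 of 8 genes passed the filter, summed to 27.9 and 31.1 FPKM in larvae, 20 and 16.2 in wild-type pupae and 19.2 and 48.3 in RNAi pupae; its part in the tapas values was not tested. Hers (CG32529), a repressor of histone genes, was at 25.4 and 30.6 FPKM in wild-type pupae and 12 and 12.2 in RNAi, and larvae, at 12.5 and 11.7, overlapped the RNAi values.

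The 3 genes of signalling and the cytoskeleton were at 18.5 to 41.0% of wild-type pupae. Egfrap (CG33993), an adaptor of the EGF receptor, was at 2 and 1.87 FPKM in wild-type pupae and 0.345 and 0.374 in RNAi. The receptor gene smal (CG34380), of the discoidin-domain family, was at 18.9 and 19.8 FPKM against 5.03 and 5.33. TTLL4B (CG3964), of the tubulin tyrosine ligase-like family, was at 14.6 and 17.4 FPKM against 6.84 and 6.31. The RNAi replicates of all 3 lay within a narrow range. The larval levels parted them: Egfrap was highest in larvae (5.2 and 5.39 FPKM), smal was low in larvae (6.54 and 5.9 FPKM) and TTLL4B was at 16.9 and 18.2, beside wild-type pupae.

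**Figure D2:**
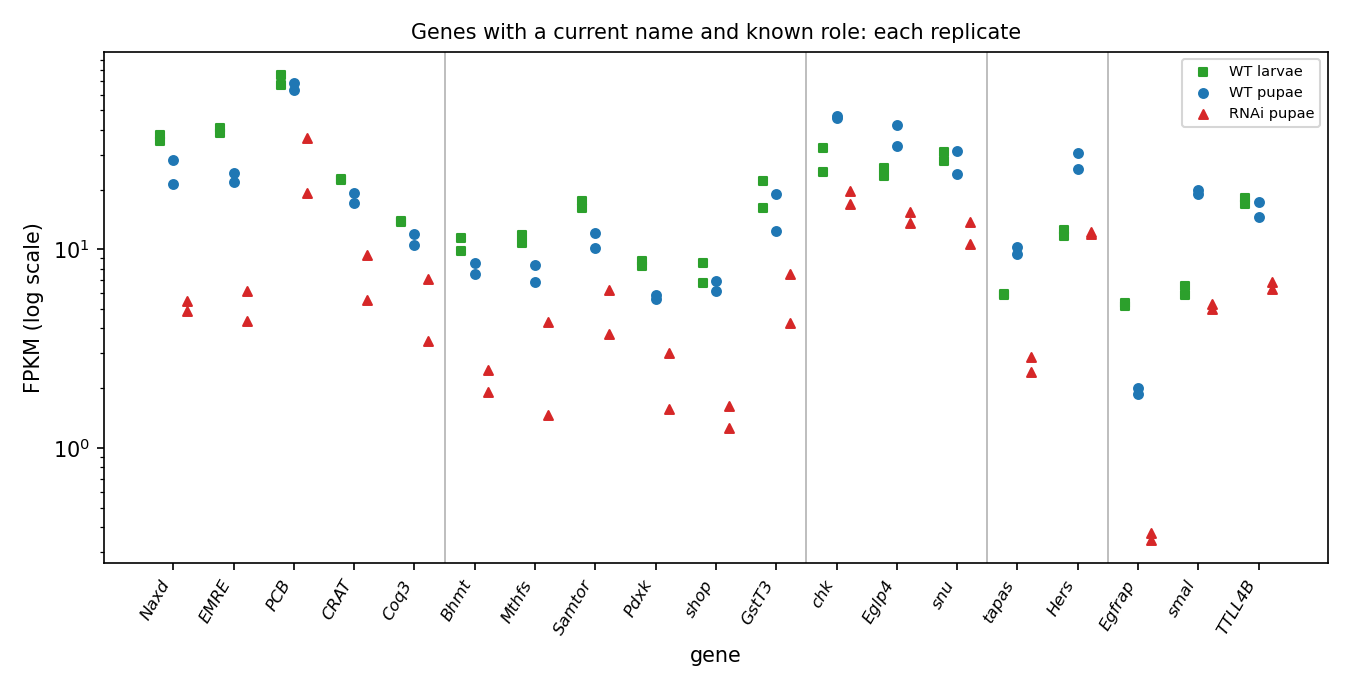
FPKM on a log axis for the 19 genes with a current name and a known role, with each of the 2 replicates of larvae (squares), wild-type pupae (circles) and RNAi pupae (triangles) drawn as a point; vertical lines part the 5 role groups. The triangles lie below the circles in every gene, by the rule, and the squares lie above the circles in, for example, Naxd, EMRE and Egfrap, and below them in chk, Eglp4, tapas, Hers and smal.

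The other 41 genes have no role group. The lowest difference of the 60 was that of CG7054, at 28.1 and 18.8 FPKM in wild-type pupae and 5.94 and 3.45 in RNAi (-2.11). CG42713 was at 5.02 and 3.14 FPKM against 0.0328 and 0.431, or 5.68% of wild-type pupae, and at most 7 fragments lay behind its value in any RNAi run. CG3829 was at 2.22 and 3.01 FPKM against 0.165 and 0.155, or 6.11%, on 10 to 19 fragments per RNAi run. These were the lowest shares of the 60, and both rest on few fragments.

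CG13023 was the most abundant of the 60, at 133 and 95.6 FPKM in wild-type pupae and 45.5 and 22.3 in RNAi, with 1177 or more fragments in each RNAi run. CG3164 followed, at 80.9 and 85.7 FPKM against 27.9 and 23.3. CG5535 was at 89.9 and 51.2 FPKM against 35 and 30.1. CG2604 was at 67.5 and 62.6 FPKM against 44.7 and 22.7, the smallest difference of the 60 (-1.003). CG9993 was at 70.4 and 59.1 FPKM against 25 and 25.3, and CG42342 at 41.7 and 41 against 17.9 and 20.5. In these abundant genes counting error was small beside the gap between the replicates of CG5535 or CG2604.

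CG5783 was at 6.16 and 11.5 FPKM in wild-type pupae and 2.17 and 0.901 in RNAi, and CG43266, which the current annotation holds as a long non-coding RNA, at 16 and 12.8 against 3.93 and 2.66. CG2680 was at 22.2 and 29.9 FPKM against 7.41 and 6.57. CG15651 was at 3.39 and 4.18 FPKM against 0.708 and 0.588. Both RNAi replicates were below 1 FPKM in 6 genes (CG10362, CG15651, CG3829, CG31373, CG33993 and CG42713), and none of the 60 was listed at 0 in both. In 4 genes (CG42713, CG12519, CG31373 and CG6294) at least 1 RNAi run rested on fewer than 10 fragments, so their shares are imprecise. The median over the 60 of the lowest run was 331 fragments in larvae, 450 in wild-type pupae and 120 in RNAi pupae.

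The larval libraries were not part of the difference that chose the genes, although the wild-type and RNAi pupal libraries set against them were, so the counts lean towards higher in wild-type pupae and lower in RNAi. Between larvae and wild-type pupae the genes went both ways, in shares close to those of all tested genes. Limma called 14 of the 60 higher in wild-type pupae, beside 22.7% of all tested genes, and 13 lower, beside 26.5%; 33 were not called. The median difference was -0.16 for the 60 and -0.07 for all tested genes. Without the second larval replicate 6 of the 60 were called lower.

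Of those called higher, smal rose most among genes detected in larvae (log2 difference 1.5 ± 0.11 SE, limma adjusted p = 0.00131), followed by Hers (1.14 ± 0.11, limma adjusted p = 0.00133), CG9164 (0.96 ± 0.18, limma adjusted p = 0.00513) and CG42342 (0.93 ± 0.11, limma adjusted p = 0.0016). With the trend over transcript length removed, these 4 kept their calls in another order, at 1.07 for smal, 0.87 for CG9164, 0.60 for CG42342 and 0.46 for Hers. CG9164 went from 3.8 and 2.69 FPKM in larvae to 7.04 and 7.31, and CG42342 from 22.9 and 19.8 to 41.7 and 41. CG32762 and CG42713 were listed at 0 in both larval replicates, so no fold is given. CG32762 was at 22.5 and 5.85 FPKM in wild-type pupae and 2.4 and 4.54 in RNAi, so its wild-type replicates were far apart and the lower one was close to RNAi.

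Of those called lower, CG13023 fell most, from 356 and 332 FPKM in larvae (log2 difference -1.60 ± 0.30 SE, limma adjusted p = 0.00521). CG9993 fell from 137 and 148 FPKM (-1.13 ± 0.10, limma adjusted p = 0.00131). Egfrap fell by 1.10 ± 0.17 (limma adjusted p = 0.00301), CG2680 by 0.98 ± 0.16 (limma adjusted p = 0.00331) and Ktch (CG15556) by 0.88 ± 0.13 (limma adjusted p = 0.00251). CG10512 fell by 1.33 ± 0.38 (limma adjusted p = 0.024), from 7.13 and 14.4 FPKM to 2.38 and 4.85, and CG31373 by 1.02 ± 0.27 (limma adjusted p = 0.0177). The call of CG10512 was lost without the second larval replicate (limma adjusted p = 0.145) and without the first wild-type pupal one (limma adjusted p = 0.105), and that of CG31373 without either larval replicate (limma adjusted p = 0.0777 and 0.0601) or the second wild-type pupal one (0.0755).

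Between larvae and RNAi pupae, limma called 48 of the 60 lower in RNAi, beside 19.5% of all tested genes, and 1 higher (CG32762), beside 27.8%. The call of CG32762 was lost without either larval replicate. The median difference was -1.53, against 0.05 for all tested genes, and the lowest was -3.39, for CG13023. Both larval replicates lay above both RNAi replicates in 53 of the 60, beside 34.2% of all tested genes. The 4 genes called both higher in wild-type pupae than in larvae and lower in RNAi than in larvae were CG3164, tapas, chk and Eglp4. For chk the first call was lost with the trend over transcript length removed (limma adjusted p = 0.112). The calls of CG3164, tapas and Eglp4 were not followed singly under that setting. Hers, in contrast, was at the larval level in RNAi pupae (log2 difference 0.00 ± 0.11 SE, limma adjusted p = 0.992), and smal close to it (-0.22 ± 0.11, limma adjusted p = 0.132); a p that misses the threshold does not show that the levels are equal.

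Sorted by replicate values alone, both larval replicates lay above both wild-type pupal replicates in 24 of the 60, beside 43.3% of all tested genes, and below both in 19, beside 33.8%. They overlapped in 17, beside 23% of all tested genes. Of the 17, 16 had larval values above both RNAi replicates, and of the 19, 13 had larval values between the pupal groups. In 4 of the 19 (CG9164, CG12768, Hers and CG42342) larvae overlapped RNAi and lay below wild-type pupae. The remaining gene of the 17 was CG6294, with larval values of 0 and 3.89 FPKM, which overlapped both pupal groups.

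**Figure D3:**
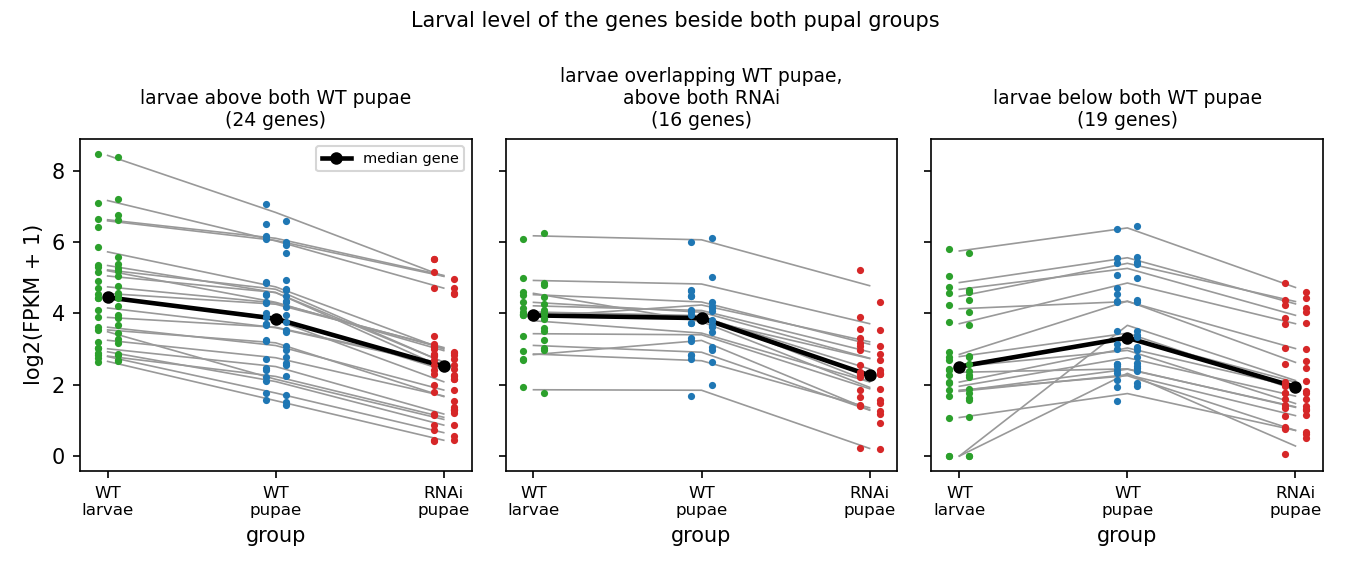
Each grey line is one gene's mean log2(FPKM + 1) in wild-type larvae, wild-type pupae and RNAi pupae, the coloured points are the replicates and the black line joins the medians over genes. The 24 genes on the left step down from group to group. The 16 in the middle have larval replicates that overlap wild-type pupae and lie above RNAi. The 19 on the right, which include 2 genes at 0 in larvae, are higher in wild-type pupae than in both other groups. The genes were sorted into these panels by their larval replicates, and the rule set RNAi below wild-type pupae. These orders are therefore fixed.

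The ecdysone response list, 16 tested genes with 0 of the 60 among them, had 11 genes higher in wild-type pupae than in larvae, beside 22.7% of all tested genes, and 3 lower in RNAi than in wild-type pupae, beside 8.64% (median -0.39), the others not being called. The nuclear receptor gene Hr4 went from 2.44 and 2.57 FPKM in larvae to 27.8 and 30.6 in wild-type pupae and 21.6 and 25.3 in RNAi. ImpL2, a secreted insulin-binding protein gene, was at 10.1 and 11.8 FPKM in wild-type pupae and 5.01 and 6.4 in RNAi (-0.84, limma adjusted p = 0.0071). Of 29 Mediator subunit genes, MED27 included, 12 were called higher in RNAi than in wild-type pupae, beside 19.6% of all tested genes. Only 1, MED27, was called lower, and the median was 0.25. MED9 was not called, at 22.5 and 36.7 FPKM in wild-type pupae and 25.7 and 3.26 in RNAi (log2 difference -1.48, limma adjusted p = 0.169). The neuron list had 7 of 7 tested genes higher in wild-type pupae than in larvae and 1 lower in RNAi, Appl, the amyloid precursor protein homologue (-0.84, limma adjusted p = 0.0358). Its part in the rise of the 14 genes at pupariation was not tested.

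The 2 RNAi replicates differed from each other within the 60 genes. The second lay below the first in 43 of the 60, beside 49.3% of all tested genes. The median difference of first minus second was 0.22 on the log2 scale for the 60 and -0.00 for all. The rule chose the 60 by low values in these same 2 replicates. All tested genes are therefore not a like comparison, and nothing is read from the skew. In wild-type pupae the second replicate was the lower one in 26 of the 60. RNAi replicates differed by 1.5-fold or more in 24 genes and wild-type pupal replicates in 15. Mthfs (4.29 and 1.46 FPKM), CG2604 (44.7 and 22.7) and PCB (36.4 and 19.1) are examples of the first, and CG34423 (21.4 and 7.31) and CG32762 (22.5 and 5.85) of the second. The gap from the highest RNAi replicate to the lowest wild-type pupal one had a median of 0.99 on the log2(FPKM + 1) scale, was 1 or more in 28 genes and was smallest in CG6294, at 0.20. Technical runs of a replicate differed by a median of 0.0612 and at most 0.581 on that scale. For most genes that was well inside the gap between RNAi and wild-type pupal replicates.

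The genes were spread over the genome, with 12 on chromosome arm 2L, 15 on 2R, 10 on 3L, 10 on 3R, 13 on X and 0 on chromosome 4. The shares of the 60 were 20%, 25%, 16.7%, 16.7% and 21.7% on the 5 large arms, and those of all tested genes 17.4%, 19.9%, 19.6%, 24.6% and 17.1%. Only 2 pairs lay within 10000 bp of each other, in the coordinates of the deposited tables (genome build not given in the sources used here). Coq3 (2L, 21157433 to 21158588) and Pld3 (CG9248, 21158878 to 21160783), a gene of the phospholipase D family, lay 289 bp apart on opposite strands, with their annotated starts next to each other. Pld3 was at 21.4 and 16.8 FPKM in wild-type pupae and 10.9 and 5.49 in RNAi, with the same order of the RNAi replicates as Coq3. CG34423 (2R, 19246206 to 19246727) and Mthfs (19246742 to 19247789) lay 14 bp apart on the same strand, so that reads between them may be shared. CG34423 was at 21.4 and 7.31 FPKM against 4.11 and 1.83.

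Genes next to the 60, apart from these pairs, were centred on no difference. Of 41 distinct tested neighbours within 1000 bp, 37 were not among the 60, and these had a median difference of 0.01 between RNAi and wild-type pupae. With members kept in, the 41 neighbours had a median of -0.01. None of the 37 met the rule. For those with CG numbers this was fixed, since such a gene meeting the rule would be among the 60 unless left out by name. Limma called 5 of the 37 lower (na at -0.85, CG17999 at -0.89, CG7441 at -0.44, CG5377 at -0.49 and Bj1 at -0.31), beside the 8.64% of all genes given above. The lowest was CG4151, 645 bp from CG32762, at -1.13 but with overlapping replicates and not called. Of the 60, 18 (30%) overlapped the span of another tested gene, beside 30.7% of all tested genes. The 22 partners had a median difference of 0.12; 0 met the rule, 2 were lower (CG30010, which overlaps PCB, and sprt, which overlaps CG30022) and 8 were higher, where 19.6% of all tested genes were higher. The library method keeps the strand, but the sources do not say that fragments were assigned by it, which leaves the levels of these 18 genes uncertain.

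**Figure D4:**
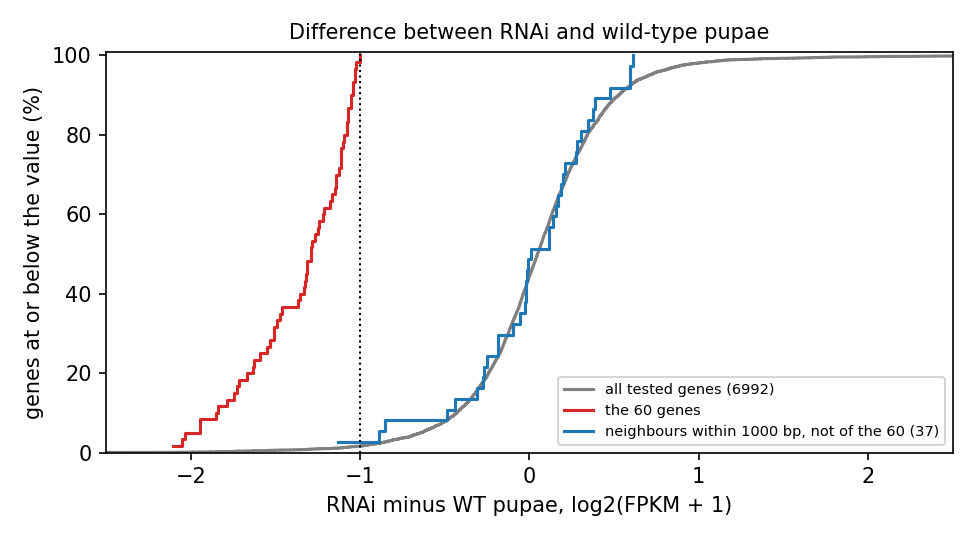
Cumulative share of genes (vertical axis, percent) at or below each difference of RNAi from wild-type pupae (horizontal axis, log2(FPKM + 1)), for all 6992 tested genes (grey), the 60 genes (red) and their 37 neighbours within 1000 bp (blue); the dotted line marks -1. The blue curve, which leaves out neighbours that are among the 60, runs along the grey one, with 1 neighbour, CG4151, left of the line. The red curve ends at the line because the rule set it there. The horizontal axis stops at -2.5 and 2.5.

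In transcript structure the medians of the 60 were close to those of all tested genes. The longest annotated transcript had a median of 2062 nt over 58 of the 60 with a match, from 468 to 9896 nt, against 2022 nt over 6830 tested genes. The median of the largest exon number was 4 in both, and 2 of the 60 had a single exon, against 619 of all tested. The current annotation holds 59 of the 60 as protein-coding. Transcript sequences and near-identical copies were not analysed here.

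The authors' deposited table of RNAi against wild-type pupae, normalized with size factors, lists 1597 genes, of which 784 are lower in RNAi. It holds 57 of the 60, all lower, and lacks CG6294, CG12519 and CG42353. In the authors' deposited table the log2 fold change of these 57 had a median of -1.72 and was lowest for CG42713, at -4.40, and nearest to 0 for CG2604. Their larval table of 1958 genes, again the authors' deposited table, holds 19 of the 60, with 11 higher and 8 lower in wild-type pupae than in larvae. Both tables come from the libraries of this study and are no separate support; which runs entered them is not stated.

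The threshold cut a continuous range. Just inside it lay CG5535 (-1.041), CG10362 (-1.033), CG10960 (-1.033), Coq3 (-1.025) and CG2604 (-1.003). Just outside lay CG18605 (-0.989), CG7322 (-0.985), CG43273 (-0.974), CG33260 (-0.972) and CG2678 (-0.966), all differences in log2(FPKM + 1) of RNAi from wild-type pupae. The 5 outside were low genes, at 1.37 to 3.98 FPKM in wild-type pupae, where adding 1 before the logarithm shrinks a difference: CG18605 went from 1.37 to 0.16 FPKM.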

How the data were processed

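Per the file headers, the authors deposited Cufflinks gene tables with FPKM and confidence bounds for each run, not counts, and 2 DESeq tables. In these the base means are a deposited signal scaled by the authors, with the authors' fold change, log2 fold change and adjusted p-value; genes listed have a deposited adjusted p-value below 0.01. The RNAi table gives wild type over RNAi, and its sign was turned here. Tools in the submitters' processing notes are Cufflinks 1.3.0, DESeq 1.8.3, TopHat 1.4.1, BWA 0.6.1 and HTSeq (genome build not given in the sources used here).

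Technical runs were averaged as FPKM. Values were tested as log2(FPKM + 1), which understates changes of low genes, with limma 3.58.1 in R 4.3.3 (eBayes with trend, group only, 6 replicates, 3 residual and 4.28 prior degrees of freedom) on 6992 genes with a mean of at least 1 FPKM and Benjamini-Hochberg adjustment at 0.05. The fit was tested on simulated data. Tables were made with Python 3.11.15, pandas 2.3.3 and numpy 2.4.6 and plots with matplotlib 3.10.9. Fragments behind a value were inferred from the upper confidence bound; 91.46 to 93.71% of low values came out whole to within 0.02. Larval libraries were the shallower, so their values carry more counting error. Names, strand, biotype and transcript lengths came from a current annotation of another build, by gene ID for 58 genes and locus tag for 2; positions are those deposited, counted from 1.

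The genes, lists and role groups were chosen with earlier results of these data known. Genes were named by size of the RNAi difference (20), level (10), larval-to-pupal change (10 each way), nearness to each other or to the threshold (5 each side), known role or list membership. Protein similarity between the genes was not analysed here. Alternatives were pseudocount, filters, quantile normalization, a length correction, single technical runs, fits on 2 groups, the replicate block and leaving out each replicate.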

Additional observations from a re-analysis of the deposited data

How the results depend on the processing

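The number of genes meeting the rule depends most on the pseudocount: 117 with 0.1 in place of 1, against 63 without the filter, 43 at a mean of at least 5 FPKM, 56 after quantile normalization and 66 with the length trend removed. Leaving out a replicate, the lone sample being assumed to vary like the other groups in limma, gave 52 to 80. Without the filter, limma called 6 of the 60 lower in wild-type pupae than in larvae (13 with it) and 0 higher in RNAi than in larvae (1 with it); at a mean of at least 5 FPKM, with 43 of the 60 tested, 9 were higher in wild-type pupae than in larvae. Leaving out a replicate gave 6 to 17 lower in wild-type pupae than in larvae and 0 to 1 higher in RNAi than in larvae. The labels do not say whether replicate numbers pair samples. Deviations from the group mean had correlations between groups of -0.057, -0.104 and -0.026, which cannot decide it with 2 replicates per group. With the replicate block 12 were higher and 15 lower in wild-type pupae than in larvae. That block also gave 1 higher and 48 lower in RNAi than in larvae, and 58 lower in RNAi than in wild-type pupae. With the larval numbers crossed, an alternative chosen after seeing the data, these counts were 13, 18, 1, 50 and 57. Over the larval-to-pupal comparisons of named genes under each alternative, 274 stayed on their side of the threshold, 29 lost and 10 gained a call, all in an unchanged direction. These comparisons covered only the 10 genes with the highest and the 10 with the lowest larval-to-pupal log2 difference. Among them, with the length trend removed, EMRE (adjusted p = 0.14), chk (0.112), CG31373 (0.12), CG42353 (0.126) and CG10362 (0.198) lost theirs in limma. Over the 60, that setting gave 10 higher and 10 lower in wild-type pupae than in larvae, against 14 and 13. Genes that were not followed singly therefore lost calls too. Larval depth, below that of every pupal run, limits low genes most.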
